A study of Hydra vulgaris with 15 samples.

Results

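The body column of the freshwater polyp Hydra vulgaris, strain Basel1, was compared between animals treated by RNA interference (RNAi) against the transcription factor Zic4 and control animals. The comparison rests on 7 of the 15 RNA sequencing libraries of the series, those whose titles give the body column. They are 4 Zic4 RNAi body columns, replicates 1 to 4, and 3 control body columns, replicates 2, 3 and 4, whose genotype is labelled wild-type. All groups had been starved for 4 days and electroporated as intact polyps 4 times on alternate days, and RNA was taken 1 day after the last electroporation. What the control animals were electroporated with is not given in the sources used here. The other 8 libraries are 4 Zic4 RNAi heads and 4 control heads from the same treatments. Per the labels 20 polyps were used for each condition, and a library is taken here as a pool of animals. Nothing says that the replicates were separate cultures, so p-values measure the spread between libraries, which may be partly technical. In the tests of single transcripts this spread was estimated over all 15 libraries, the 8 heads included. The source field of all samples names the whole animal, and the tissue therefore rests on the title and the tissue field.

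Hydra is a tube of an outer and an inner epithelial layer, with a foot at one end and a head with a mouth and tentacles at the other. Epithelial cells of the body column keep dividing, are displaced towards both ends, and stop dividing where they turn into tentacle or foot cells. Stem cells between the epithelial cells give rise to nerve cells, gland cells and stinging cells. Zic proteins are zinc-finger transcription factors, and the title of the series ties Zic4 to tentacle formation and to the identity of epithelial cells. The body column carries no tentacles, so the comparison asks what the RNAi treatment changed outside them. The deposited table lists assembled transcripts by ID only, and none of its 79784 IDs matched the 28925 genes of a RefSeq table. Transcripts are therefore given without gene names, the level of Zic4 and of cell type markers was not analysed here, and the treatment and tissue of each library rest on its label. In pools of whole tissue, fewer cells of a type and less RNA per cell cannot be told apart.

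RNAi and control body columns lay apart on the first principal component, with control replicate 3 farthest out. On this component control libraries were spread more widely (SD of 45.3, n = 3) than RNAi libraries (SD of 7.17, n = 4). Only the median spread of single transcripts was alike in both groups. RNAi replicates 1 to 4 had 22554104, 19883923, 19696549 and 16020768 counts, against 16022221, 17153747 and 17500311 counts in control replicates 2, 3 and 4. On the first principal component of the 7 libraries, which held 22.5% of the variance of log2 CPM (counts relative to the library total, on a scale common to all libraries), RNAi replicates 1 to 4 stood at 61.2, 50.8, 62.9 and 67.8. Control replicates 2, 3 and 4 stood at −61.7, −132.6 and −48.4. The groups did not overlap on this component. The exact two-sided permutation p was 0.0286, the smallest that 4 against 3 libraries allow, and 0.2 after Benjamini-Hochberg (BH) adjustment over 7 library measures. Across transcripts, log2 CPM correlated with r of 0.901 to 0.918 between RNAi libraries, 0.889 to 0.899 between control libraries, and 0.879 to 0.899 between groups, as a description over transcripts that share their libraries' depth. Control replicate 4 was on average no closer to the other controls (r of 0.897) than to the RNAi libraries (0.897). For control replicates 2 and 3 the mean r was 0.894 and 0.892 with controls, against 0.893 and 0.885 with RNAi libraries. The median SD of a transcript's log2 CPM was 0.338 over the RNAi body columns and 0.337 over the control body columns.

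**Figure D1:**
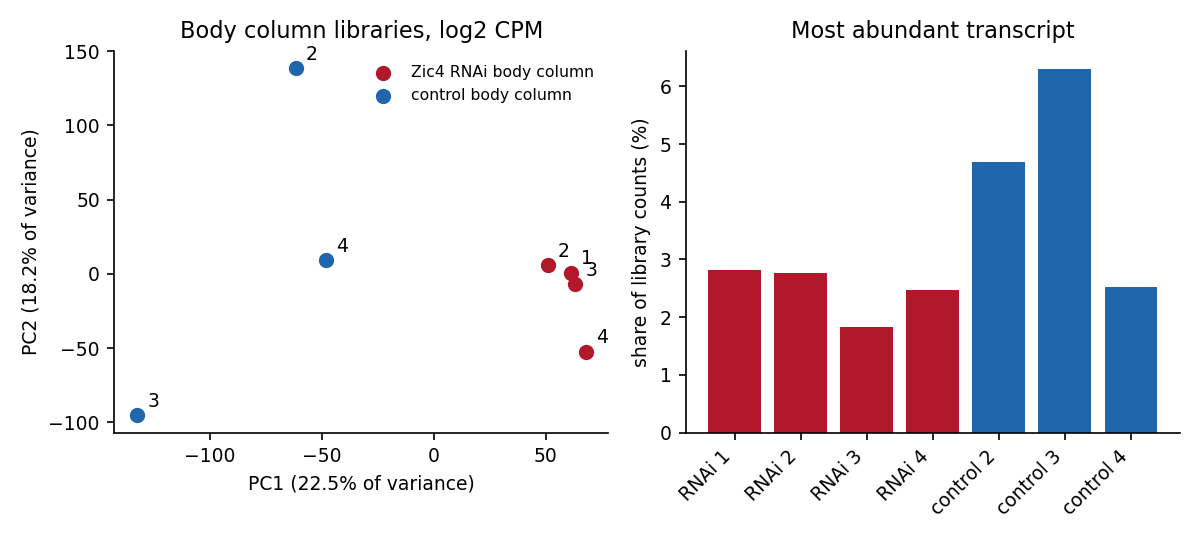
Left, the 7 body column libraries on the first and second principal components of log2 CPM, each point 1 library with its replicate number. Right, the share of each library's counts, in percent, held by the most abundant transcript. The 4 RNAi libraries lie together at 50.8 to 67.8 on the first component, control replicate 3 lies at −132.6, and it has the largest share of the most abundant transcript, 6.3%.

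The most abundant transcript of the body column, GGKF01002923.1, varied widely between libraries. It took 2.82%, 2.77%, 1.83% and 2.47% of the counts in RNAi replicates 1 to 4, against 4.68%, 6.3% and 2.52% in control replicates 2, 3 and 4. Control replicate 4 fell within the range of the RNAi libraries, so the groups overlapped. The exact two-sided permutation p was 0.0857 (adjusted 0.2), and edgeR gave the transcript a log2 fold change of −0.81 ± 0.71 (standard error, SE) at a BH adjusted p of 0.652. In heads it averaged 52830 ± 42170 CPM after RNAi and 39357 ± 29255 CPM in controls (SD, n = 4 each), against 26239 ± 5318 CPM in RNAi (SD, n = 4) and 46133 ± 20712 CPM in control body columns (SD, n = 3). In both tissues the group with the larger mean had the larger SD, and the spread relative to the mean was not compared. The 100 most abundant transcripts together held 31.7% to 33.3% of the counts in RNAi libraries, against 31.7% to 35.7% in control libraries. After each library was thinned to 16020768 counts, 36793, 36360, 37126 and 36773 transcripts had a count in RNAi replicates 1 to 4. The numbers in control replicates 2, 3 and 4 were 35457, 34690 and 36717. Control replicate 4 again lay within the RNAi range (exact two-sided permutation p = 0.0571, adjusted 0.2).

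After Zic4 RNAi, body columns had more of 471 transcripts and less of 169 than control body columns (quasi-likelihood test of edgeR fitted to all 15 libraries, adjusted p-value below 0.05 by BH). These are 1.51% and 0.543% of the 31142 transcripts tested, 2.06% in both directions. Over all calls, rises were smaller in the median than falls. Rises lay at higher abundance, and within classes of abundance falls were not larger throughout. The 471 that rose had a median log2 fold change of 0.43, with quartiles at 0.33 and 0.62, which is a 1.35-fold median, and 283 of them changed by less than 0.5. The 169 that fell had a median of −0.79, with quartiles at −1.15 and −0.56, and 31 of them changed by less than 0.5. A change of at least 1 on the log2 scale was called for 56 transcripts higher and 55 lower, which are 0.18% and 0.177% of those tested, together 0.356%. Of the called transcripts, 468 of 471 that rose and 168 of 169 that fell had no overlap between the 4 RNAi and the 3 control libraries, and of all tested transcripts 8.56% had RNAi libraries above all controls and 7.19% below, together 15.8%. Without adjustment, 5227 transcripts had a p under 0.05. The heads entered the estimate of spread behind these calls. With the 7 body columns fitted alone, 100 of 25331 tested transcripts were called, which is 0.395%, and 70 of them were among the 640.

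**Figure D2:**
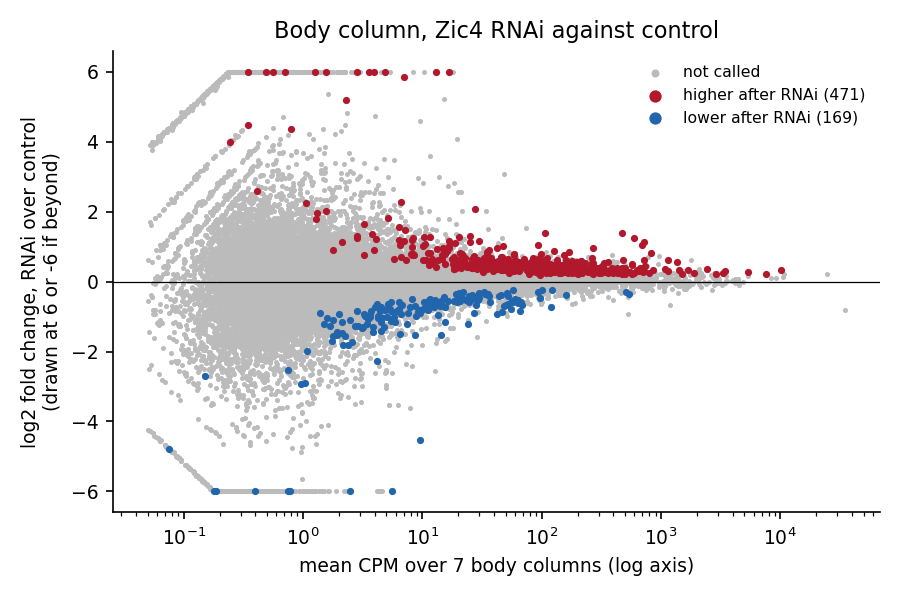
Log2 fold change of RNAi over control body columns against the mean CPM over the 7 libraries, on a log axis, 1 point per tested transcript, with changes beyond 6 drawn at 6 or −6 and 374 transcripts under 0.05 CPM, none of them called, left out. The 471 transcripts called higher lie mostly at high CPM with small changes, and the 169 called lower lie at lower CPM.

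The direction of the calls followed abundance. Transcripts were classed by the log2 of their mean CPM over the 7 body columns. Among the 574 transcripts over 8 on this scale, 91 rose and 2 fell. In the class from 6 to 8, 171 of 1779 rose and 9 fell, and in that from 4 to 6, 141 of 4786 rose and 46 fell. The order turned below that, where 42 of 6981 transcripts from 2 to 4 rose and 69 fell, and 18 of 7495 from 0 to 2 rose and 34 fell. Under 0, 8 of 9527 rose and 9 fell. CPM is not divided by transcript length, so a class mixes long weakly expressed and short strongly expressed transcripts. The median log2 fold change of all tested transcripts, called or not, was 0.12 in the class over 8 and −0.066 in the class from 0 to 2. The median SE of the log2 fold change was 0.077 in the class over 8 and 1.263 in that under 0. The smallest change called was 0.21 in the class over 8, 0.76 from 0 to 2 and 2.53 under 0, so changes near the median rise of 0.43 were not detectable at this depth in weakly expressed transcripts. Within a class, called rises and falls had median log2 fold changes of 0.38 and −0.48 from 6 to 8, and 0.51 and −0.50 from 4 to 6. They were 0.87 and −0.80 from 2 to 4, and 1.88 and −1.27 from 0 to 2. The smaller median of all rises therefore goes with their abundance.

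**Figure D3:**
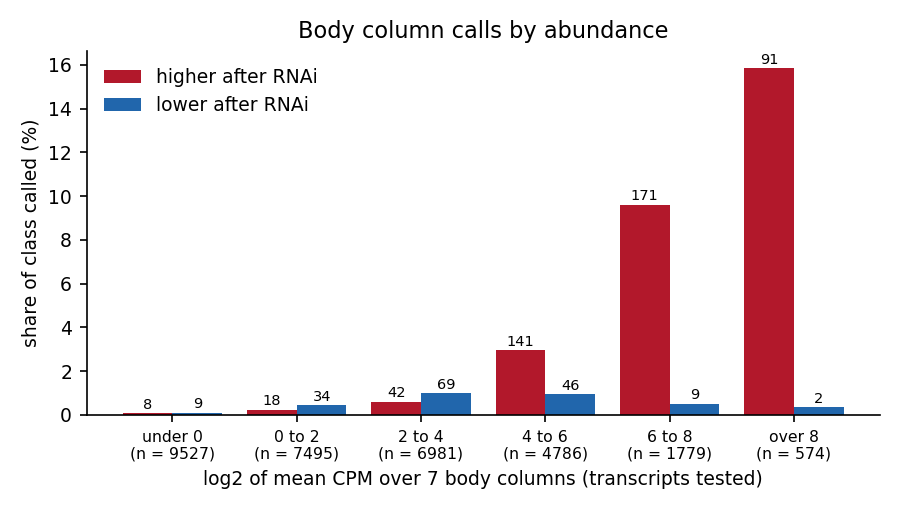
Share of the tested transcripts of each class of log2 mean CPM that was called higher or lower after RNAi in body columns, in percent, with the number called above each bar. The share called higher reached 15.9% in the class over 8, where 0.348% were called lower.

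This lean towards rises held with 3 kinds of scaling factors and was lost with library size alone or with the abundance trend removed. With the trimmed mean of M-values (TMM) factors used here, 73.6% of the calls were higher. The share was 71.5% of 608 calls with DESeq2 size factors and 69.4% of 614 with upper-quartile factors. With library size alone, 64 transcripts were called higher and 79 lower, which is 44.8% higher. The median of all transcripts then moved to −0.043, against 0.011 with TMM factors. After removal of the trend with abundance in every library, a setting added after the values were seen, 149 were called higher and 186 lower, which is 44.5% higher. All 640 calls kept their sign under each of these settings. The 64 rises called under library size alone were all among the 471, and their median log2 fold change with TMM factors was 0.78. A setting with fewer calls can keep the larger changes through its threshold alone, so this median is a description.

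Those 471 transcripts held 11.2%, 11.1%, 11.3% and 11.4% of all counts in RNAi replicates 1 to 4, against 9.15%, 8.46% and 9.61% in control replicates 2, 3 and 4. The 169 that fell held 0.321%, 0.336%, 0.35% and 0.355% in RNAi replicates, against 0.503%, 0.514% and 0.52% in control replicates. These sums describe transcripts chosen by the same comparison and carry no test. A small change could be called in an abundant transcript and not in a weak one, so the sums of rises and falls are not set against each other.

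Among called transcripts that averaged at least 5 CPM in each group, with no overlap between the groups, GGKF01038072.1 rose most. It had 48.8, 31.6, 44.1 and 38.3 CPM in RNAi replicates 1 to 4, against 8.78, 5.66 and 14.7 CPM in control replicates 2, 3 and 4. Every RNAi library was above every control library. The rise was 4.18-fold, or 2.06 ± 0.30 on the log2 scale (fitted value ± SE, edgeR BH adjusted p = 0.00676). Each of the 7 fits without 1 of the body column libraries called it. In heads it averaged 24.6 ± 5.02 CPM after RNAi and 12.4 ± 3.06 CPM in controls (SD, n = 4 each), with a log2 fold change of 0.99 (edgeR BH adjusted p = 0.0435).

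The second, GGKF01018204.1, had 152, 165, 117 and 144 CPM in RNAi replicates 1 to 4, against 42.5, 53.9 and 69.5 CPM in control replicates 2, 3 and 4. The groups did not overlap, and RNAi replicate 3 was the lowest of its group. The log2 fold change was 1.38 ± 0.20 (SE, edgeR BH adjusted p = 0.00676), and every one of the 7 fits without 1 library called it. In heads it averaged 107 ± 12.7 CPM after RNAi and 50.9 ± 12.8 CPM in controls (SD, n = 4 each), with a log2 fold change of 1.07 (edgeR BH adjusted p = 0.00308). Neither rise differed between the tissues past the threshold, with a log2 difference of 1.07 for GGKF01038072.1 (edgeR interaction, BH adjusted p = 0.209) and 0.31 for GGKF01018204.1 (BH adjusted p = 0.65).

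**Figure D4:**
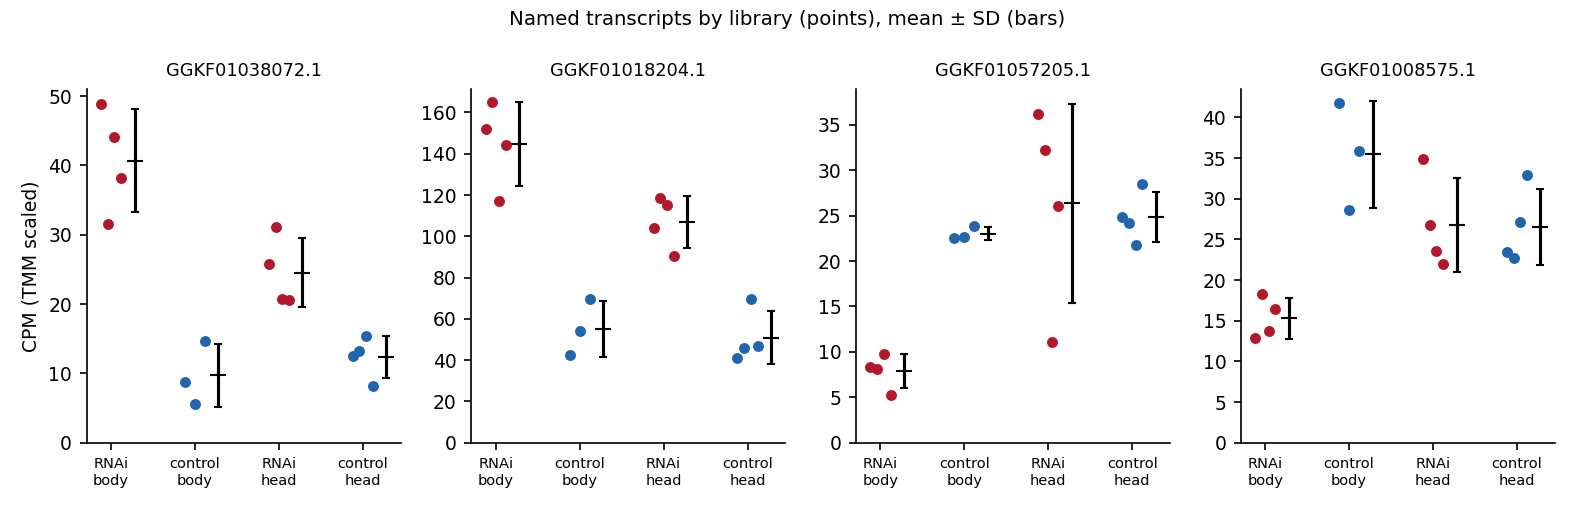
CPM of 4 transcripts in each library (points) of RNAi and control body columns and heads, with mean ± SD beside the points. In body columns the RNAi points of GGKF01038072.1 and GGKF01018204.1 lie above all control points, and those of GGKF01057205.1 and GGKF01008575.1 lie below all control points.

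The largest fall by the same rule was that of GGKF01057205.1, with 8.38, 8.15, 9.8 and 5.28 CPM in RNAi replicates 1 to 4, against 22.5, 22.7 and 23.8 CPM in control replicates 2, 3 and 4. The groups were far apart, and the control values lay within 1.34 CPM of each other. The log2 fold change was −1.54 ± 0.30 (SE, edgeR BH adjusted p = 0.0217). It was called in 3 of the 7 fits without 1 library, and over these 7 the BH adjusted p of edgeR lay between 0.0402 and 0.08. The call was lost without control replicate 2 (0.0542) or 3 (0.08) and without RNAi replicate 1 (0.0552) or 2 (0.0522). A contig 3 numbers further on in the table was listed at 0 in all 3 control body columns and had 12, 14.1, 12.3 and 20.4 CPM in RNAi replicates 1 to 4. Its rise was not called (edgeR BH adjusted p = 0.133). The sum of these 2 contigs was 22.6 ± 2.23 CPM in RNAi body columns (SD, n = 4). In control body columns it was 23.02 ± 0.725 CPM (SD, n = 3), within the range of the RNAi libraries. Salmon, a program the submitters' processing notes name, estimates how reads are shared among similar contigs. Whether these 2 contigs are similar in sequence was not tested. In heads GGKF01057205.1 averaged 26.4 ± 11 CPM after RNAi and 24.8 ± 2.77 CPM in controls (SD, n = 4 each), with a log2 fold change of 0.086 ± 0.27 (SE, edgeR BH adjusted p = 0.949). The difference between the tissues was −1.62 on the log2 scale, body column minus head, and did not pass the threshold (edgeR interaction, BH adjusted p = 0.0652). RNAi heads were not alike. In RNAi head replicate 3, GGKF01057205.1 had 11.1 CPM and the contig 3 numbers further on had 11.6 CPM. That contig was at 0 in RNAi head replicates 1, 2 and 4, where GGKF01057205.1 had 36.1, 32.2 and 26 CPM.

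The second fall, that of GGKF01008575.1, gave 12.8, 18.3, 13.7 and 16.5 CPM in RNAi replicates 1 to 4, against 41.8, 28.7 and 35.9 CPM in control replicates 2, 3 and 4. All RNAi values lay under all control values. It fell by 1.21 ± 0.19 on the log2 scale (SE, edgeR BH adjusted p = 0.00969), and was called in each of the 7 fits without 1 library. In heads it averaged 26.8 ± 5.78 CPM after RNAi and 26.6 ± 4.68 CPM in controls (SD, n = 4 each), with a log2 fold change of 0.012 ± 0.17 (SE, edgeR BH adjusted p = 0.99). The effect was more negative in the body column by 1.22 on the log2 scale (edgeR interaction, BH adjusted p = 0.0289). The transcript was chosen by its fall in the same body column libraries, so this p is not independent of the choice. A contig 2 numbers before it averaged 34.7 CPM in RNAi and 63.4 CPM in control body columns, and its fall was called as well, with a log2 fold change of −0.87 (edgeR BH adjusted p = 0.0274).

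Some calls rest on transcripts listed at 0 in 1 group. Of the 471 that rose, 12 were at 0 in all 3 control body columns, and of the 169 that fell, 8 were at 0 in all 4 RNAi body columns. Of all 31142 tested transcripts, 1020 were at 0 in all 3 control and 517 in all 4 RNAi body columns. Over the whole table, 59 contigs were at 0 in every control body column and over 3 counts in every RNAi body column, and 10 of them were called. In the opposite direction there were 42 contigs, and 5 of them were called. An exact 0 in estimated counts can be a failed estimate.

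Part of the rises and a smaller part of the falls of the body column were called in heads too, and most of both were not. Of the 471 transcripts that rose in body columns, 137 also rose in heads, which is 29.1%, against 2.65% of all tested transcripts, and 18 fell there. Their median log2 fold change in heads was 0.20, and it was over 0 for 408 of them, which is 86.6%, against 47.7% of all tested. Of the 169 that fell in body columns, 15 fell in heads, which is 8.88%, against 2.11% of all tested, and 4 rose. Their median log2 fold change in heads was −0.12, and it was over 0 for 57 of them, which is 33.7%, against 47.7% of all tested. The median CPM in control heads was 66.2 for the rises and 12.7 for the falls. The contrasts share no library, but they share 1 model, 1 scaling and the abundance of each transcript, and the part of these in the overlap was not tested. Of the 640 calls, 316 rises and 150 falls were not called in heads, which does not show that they were absent there.

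The difference between the tissues was tested itself as an interaction. It was called for 59 of the 471 rises, and for 58 of these the effect was more positive in the body column. It was called for 28 of the 169 falls, all 28 with a more negative effect in the body column. Of all tested transcripts 1.57% had such a difference, 1.07% with the more positive and 0.501% with the more negative effect in the body column. The body column libraries entered both the choice of these transcripts and the interaction, so the counts are a description. Without control replicate 3 the number of body column calls with a called interaction was 36 in place of 87, and without RNAi replicate 1, 2 or 3 it was 37, 51 or 53.

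The number of calls depended strongly on single libraries. Without control replicate 3, 103 transcripts were called, 77 higher and 26 lower, and without control replicate 2, 255 were called. Leaving out RNAi replicate 1, 2 or 3 gave 234, 293 or 298 calls, and without control replicate 4 the lower calls numbered 94. Calls with a log2 change of at least 1 numbered 55 without control replicate 3 and 52 or 73 without RNAi replicate 1 or 2, in place of 111. Fitting only the 7 body columns, which also left 25331 transcripts to test, gave 100 calls, of which 70 were among the 640. The DESeq2 Wald test called 2529, among them all 640. Of the 640, 62 were called in each of the 7 fits that left out 1 body column library, 46 higher with a median log2 fold change of 0.62 and 16 lower with a median of −0.98. They include GGKF01038072.1, GGKF01018204.1 and GGKF01008575.1, and 33 of the 62 were also called in heads in the same direction.

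**Figure D5:**
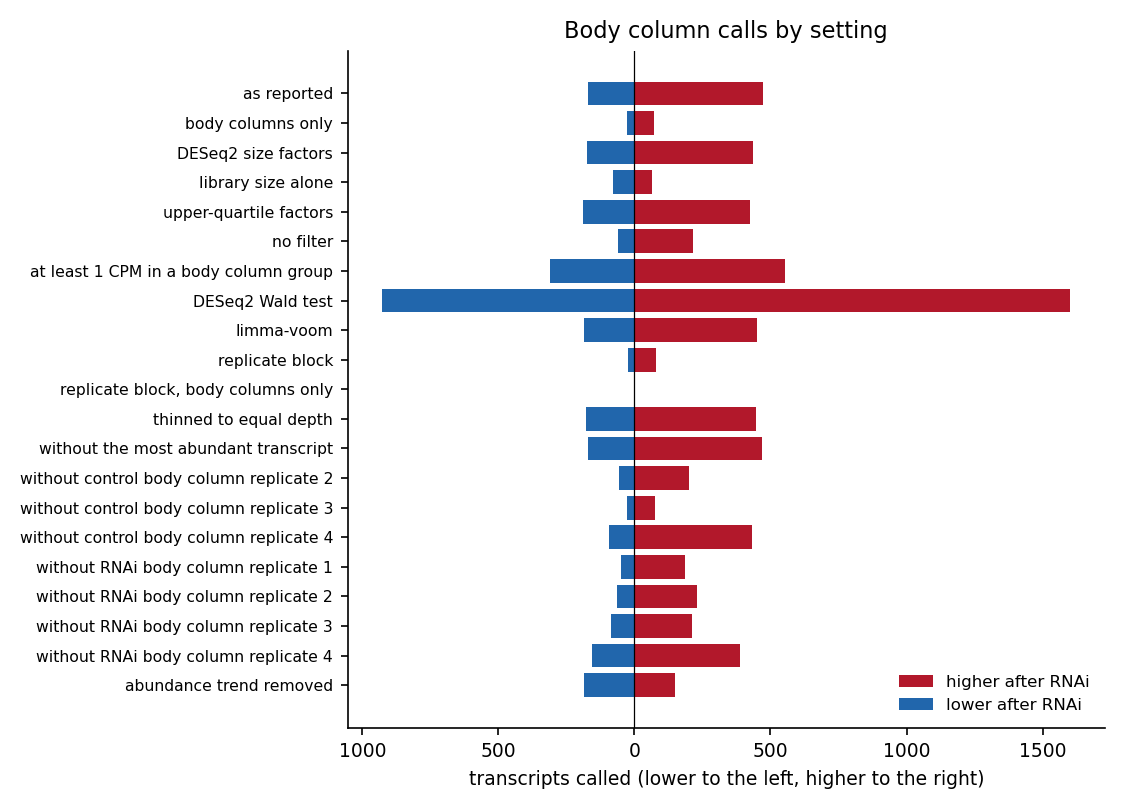
Number of transcripts called higher (right) and lower (left) after RNAi in body columns under each setting, 1 bar per setting. The number is 640 as reported, 103 without control replicate 3, 100 with body columns alone and 2529 with the DESeq2 Wald test, and no transcript is called with body columns alone and the replicate number as a block, where edgeR gave 2925 transcripts an unadjusted p under 0.05.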

How the data were processed

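Polyadenylated RNA libraries were made with a stranded Illumina TruSeq kit, per the labels' protocols. The deposited table holds expected counts per assembled contig, 1 column per library and not scaled, with 74.2% of nonzero values not whole. The submitters' processing notes name Salmon and DESeq2 1.26.0 without their role, and settings and reference are not given in the sources used here. Expected counts were rounded, which changed a body column total by at most 136 counts. Tested transcripts (filterByExpr) held 99.8% of body column counts. Testing used edgeR 4.0.16 (glmQLFit and glmQLFTest, R 4.3.3): 1 mean per group, all 15 libraries, TMM factors, and BH adjustment over 31142 transcripts. SEs came from the fold change and its F statistic. Principal components used log2 CPM with a prior count of 2. Scripts were tested on simulated counts for the direction and size of the changes put in. The simulation held no outlying library and no change as small as the median rise, so it does not bear on such calls.

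Named transcripts were the 2 largest rises and 2 largest falls among calls without overlap whose lower group averaged at least 5 CPM, plus the most abundant transcript. The neighbouring contigs were chosen after their values were seen. The comparison, rules and tests were chosen with earlier results of these data known. Alternatives were other scalings, filters, tests (DESeq2 1.42.0, limma 3.58.1), fits of body columns alone, a replicate block, thinning, and leaving out each library. No replicate block was used in the main fit. Over all tested transcripts, same-numbered RNAi and control body columns did not deviate together (r of 0.017, −0.003 and 0.04 for numbers 2, 3 and 4). This does not exclude an effect of the replicate number on some transcripts. No libraries of a group were identical. Counts of pairs within a group gave a chi-square over its degrees of freedom between 8.66 and 27.8, and those of pairs between groups between 16.5 and 43.6. For control replicate 4 it was 18.4 and 27.8 with control replicates 2 and 3, and 16.5 to 19.5 with the RNAi libraries. The labels name no batch.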

Additional observations from a re-analysis of the deposited data

Results flagged for a closer look

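The RNAi effect on GGKF01008575.1 differed between the tissues by a test of the difference itself, with a log2 difference of −1.22, body column minus head (edgeR interaction, BH adjusted p = 0.0289). The body column libraries entered both its choice as a large fall and this test, so the p is not independent of the choice. GGKF01008575.1 averaged 15.3 ± 2.52 CPM in RNAi (SD, n = 4) and 35.5 ± 6.58 CPM in control body columns (SD, n = 3), lower in 4 of 4 RNAi libraries. In heads it averaged 26.8 ± 5.78 CPM after RNAi and 26.6 ± 4.68 CPM in controls (SD, n = 4 each). In 22 groups of 4 values for the named transcripts and the library measures, no library stood apart from the other 3 by Dixon's test. The control body columns, a group of 3 that holds control replicate 3, were not examined in this way.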

How the results depend on the processing

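Calls stayed within 1.5 times of 640 with DESeq2 size factors (608), upper-quartile factors (614), limma-voom (636), thinning to equal depth (627), without the most abundant transcript (640) and with at least 1 CPM in a body column group (863, where the lower calls moved to 311). They moved further in these settings, given as all calls, higher, lower, and calls with a log2 change of at least 1: body columns only, 100, 71, 29 and 43; library size alone, 143, 64, 79 and 52; no filter, 274, 215, 59 and 66; the DESeq2 Wald test, 2529, 1602, 927 and 634. With the abundance trend removed, added after the data were seen, there were 335 calls and 149 higher. The replicate block gave 101, 79, 22 and 25. Same-numbered body columns did not deviate together over all tested transcripts, and an effect of the number on some of them was not tested. With the replicate block and body columns only, where RNAi replicate 1 has no partner, edgeR called 0 in all 4 counts, and 2925 transcripts had an unadjusted p under 0.05. Leaving out 1 body column library gave 103 to 545 calls, 77 to 433 higher, 26 to 157 lower, and 52 to 142 with a log2 change of at least 1. Calls with a called interaction numbered 27 with library size alone, 696 with the DESeq2 Wald test, 19 with the replicate block and 36 to 95 when 1 library was left out. The cause of these moves was not tested, and this includes the fewer libraries of some fits and the more transcripts tested without a filter. The 4 named transcripts kept their direction in all 20 alternatives. Of these, 19 called GGKF01038072.1, GGKF01018204.1 and GGKF01008575.1, and 14 called GGKF01057205.1; BH adjusted p reached 0.388 with the replicate block and body columns only. The 7 library measures kept the sign of their difference without each library; with 6 libraries no exact test of them could pass the threshold.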

Other observations

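Some called contigs had close ID numbers. Of the 471 transcripts that rose, 76 had another rise within 5 ID numbers, which is 16.1%, against 6.25% of transcripts that were not called. Of the 169 that fell, 11 had another fall within 5 numbers, which is 6.51%, against 2.1%. Called and uncalled transcripts differ in abundance, and these shares were not tested. The largest such group named here lies around GGKF01018204.1, where 3 of 8 tested neighbours rose as well. Their log2 fold changes were 1.04, 1.12 and 1.38 (edgeR BH adjusted p = 0.0141, 0.00886 and 0.0035), and they averaged 883, 946 and 644 CPM in RNAi body columns, against 429, 434 and 248 CPM in control body columns. Another neighbour averaged 4040 CPM in RNAi and 3948 CPM in control body columns, with a log2 fold change of 0.033 (edgeR BH adjusted p = 0.957). The files do not say which contigs belong to 1 gene, so the number of genes behind the 640 calls is not known.

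A neighbour within 5 numbers whose groups did not overlap in the other direction, with a difference in mean CPM at least 0.5 times as large, was found for 24.5% of transcripts that were not called. Of the 169 falls, it was found for 45 of the 161 with a count in an RNAi body column, which is 27.95%, and for 2 of the 8 at 0 there. Of the 471 rises, it was found for 28 of the 459 with a count in a control body column, which is 6.1%, and for 4 of the 12 at 0 there. Over all 640 calls it was found for 79, which is 12.3%. Among calls with a log2 change of at least 1 it was found for 31 of 111, which is 27.9%. The difference asked of a neighbour grows with that of the transcript in CPM. The median of mean CPM over body columns was 80.7 for the rises, 9.42 for the falls and 3.09 for all tested transcripts. The shares therefore cannot be compared between these sets, and they were not tested.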
